A study of Danio rerio with 2 samples.

Results

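The genes described here are 5 matrix metalloproteinases, mmp2, mmp9, mmp14a, mmp14b and mmp13a, and 2 tissue inhibitors of metalloproteinases, timp2a and timp2b. They were taken by symbol from the gene table of each library, where each had 1 row, so they make up 7 of 35117 genes. Their levels did not enter the rule that took them, but earlier results of these data were known when they were chosen. The question was how much protease and how much inhibitor transcript each group of cells held, and how that differed between the genotypes.

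Matrix metalloproteinases are zinc enzymes that cut collagens and other proteins around cells. Most are made as inactive precursors and are blocked by inhibitors of the TIMP family. In mammals, MMP14, which sits in the cell membrane, activates the precursor of the gelatinase MMP2 with the help of TIMP2, which binds both, so TIMP2 takes part in activation as well as inhibition. MMP9, the other gelatinase, and the collagenase MMP13 are best known in the skeleton from the zone where hypertrophic cartilage is replaced by bone. Zebrafish keep paired copies of the MMP14, MMP13 and TIMP2 genes, named a and b.

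The series holds 2 libraries of single cells from zebrafish carrying the transgenes Tg(fli1a:EGFP)y1 and Tg(sox10:DsRed)el10, whose red and green labels together were used to sort live cartilage cells. The WT library was labelled as 21 days post fertilization and the library from nkx3.2 el802/el802 mutants as 22 days, although the protocol text gives 21 days for both. The nkx3.2 gene encodes a homeobox factor of the jaw joint. The sort sets the cell types present, and neither the number of animals nor their sex is given in the sources used here.

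There was 1 library per genotype, so no difference between the genotypes could be tested. Genotype, the age on the labels and library preparation cannot be told apart. Intervals given with values are 95% intervals for counting error alone. After filtering, 2051 WT cells and 1996 mutant cells remained, with 4 cell barcodes found in both libraries. The median cell held 5778 UMIs (unique molecular identifiers, each standing for 1 captured transcript) in the WT library and 6998.5 in the mutant library. Levels are UMIs per 1000000 UMIs of the same cells (CPM), which are not divided by gene length because the 3′ assay captures each transcript at its end. The nkx3.2 transcript was at 45.6 CPM in the WT library and 41.5 CPM in the mutant library, and since the position of the el802 lesion is not given in the sources used here, a 3′ count of it does not check the genotype. TMM scaling, an alternative that sets the bulk of genes level, would raise log2 mutant over WT ratios by 0.13 in whole libraries and by 0.03 (chondrocyte-like cells) to 0.25 (mmp13b-positive cells) within cell groups.

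Cells were put into groups by summed UMIs of marker genes per 10000 UMIs. Such a group is a range of a score and not a cell type, and between 4 and 123 WT cells and between 4 and 152 mutant cells lay within 25% of a group's limit. Chondrocyte-like cells (matn1 and col2a1a at 30 or more) numbered 950 in the WT library and 1079 in the mutant library. Fibrous connective tissue-like cells (col5a1, postnb, mfap2, dcn, lum and pdgfra at 6 or more) numbered 365 and 238. The mmp13b-positive cells (mmp13b at 10 or more) numbered 79 and 40, and are named by their rule. The col10a1a-positive cells, again named by their rule, numbered 108 and 61. Cells high for fn1b and tgm2l numbered 275 and 168, cells high for f13a1b and mgp 67 and 118, and cells high for ccl25b and cxcl12a 56 and 65. Osteoblast-like cells (28 and 13) and krt4-high cells (45 and 25) were too few for comparison, and 78 WT and 189 mutant cells fell in no group. The labelled tissue, cartilage, was borne out in the chondrocyte-like group by col9a1a and epyc, which did not define it. There, col9a1a was at 6383 CPM in the WT library and 3739 CPM in the mutant library, against 4373 and 2792 CPM over all cells. The cartilage proteoglycan gene epyc was at 2749 and 2329 CPM, against 1812 and 1674 CPM. Other cartilage genes were highest elsewhere. For acana, levels were 158 and 161 CPM in this group but 222 and 235 CPM in cells high for fn1b and tgm2l. For ucmab they were 2030 and 1466 CPM in this group but 2369 and 1863 CPM in cells high for f13a1b and mgp.

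The mmp13b-positive cells had the highest levels of mmp2, mmp9, mmp14a, mmp14b and timp2a among the compared groups of both libraries. The median cell of this group held 8.80 UMIs of matn1 and col2a1a per 10000 in the WT library and 6.69 in the mutant library, against 307 and 184 among chondrocyte-like cells. The whole chondrocyte list summed to 14760 CPM in the WT library and 13256 CPM in the mutant library, against 38945 and 25291 CPM over all cells. Their summed hypertrophic cartilage markers, which hold no protease gene, were at 7326 CPM in the WT library and 6491 CPM in the mutant library, against 1351 and 522 CPM over all cells. Most of that sum was spp1, at 4464 and 4678.5 CPM, and col10a1a, at 2632 and 1604 CPM. Of the 7 hypertrophic markers, 2 were at 0 UMIs in each library, and ihha was at 29.2 and 34.2 CPM. The osteoblast list, which shares spp1 and col10a1a with the hypertrophic list, was as high, at 7461 and 6545 CPM against 1433 and 531 CPM over all cells. When cells were clustered with all protease and inhibitor genes left out, 53 of the 79 WT cells and 24 of the 40 mutant cells came together in a single cluster, whose leading genes included spp1 and entpd5a besides mmp13b and mmp9. The median sum of fibrous connective tissue markers in this group was 1.29 UMIs per 10000 in the WT library and 2.57 in the mutant library, and the median col10a1a level was 0 in both.

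The gelatinase gene mmp2 was the most abundant of the members and was found in nearly every kind of cell. In whole libraries it was at 818 CPM in the WT library (11354 UMIs in 1824 cells) and 750.01 CPM in the mutant library (12176 UMIs in 1803 cells), a mutant over WT ratio of 0.917 (0.893 to 0.941) that came to 1.005 after TMM scaling. Among mmp13b-positive cells mmp2 was at 2059.9 CPM in the WT library and 2622 CPM in the mutant library. Fibrous connective tissue-like cells followed, at 1089 and 1326 CPM. These levels did not overlap with those of any lower group. Chondrocyte-like cells held mmp2 at 781 and 711 CPM, cells high for f13a1b and mgp at 788 and 655 CPM, and cells high for fn1b and tgm2l at 659 and 625 CPM. Neighbours in this order overlapped. The lowest levels were in cells high for ccl25b and cxcl12a, at 371 CPM in both libraries, and in col10a1a-positive cells, at 423 CPM in the WT library and 286 CPM in the mutant library. Because chondrocyte-like cells were the most numerous, they gave 54.9% of all mmp2 UMIs in the WT library and 63.3% in the mutant library.

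**Figure D1:**
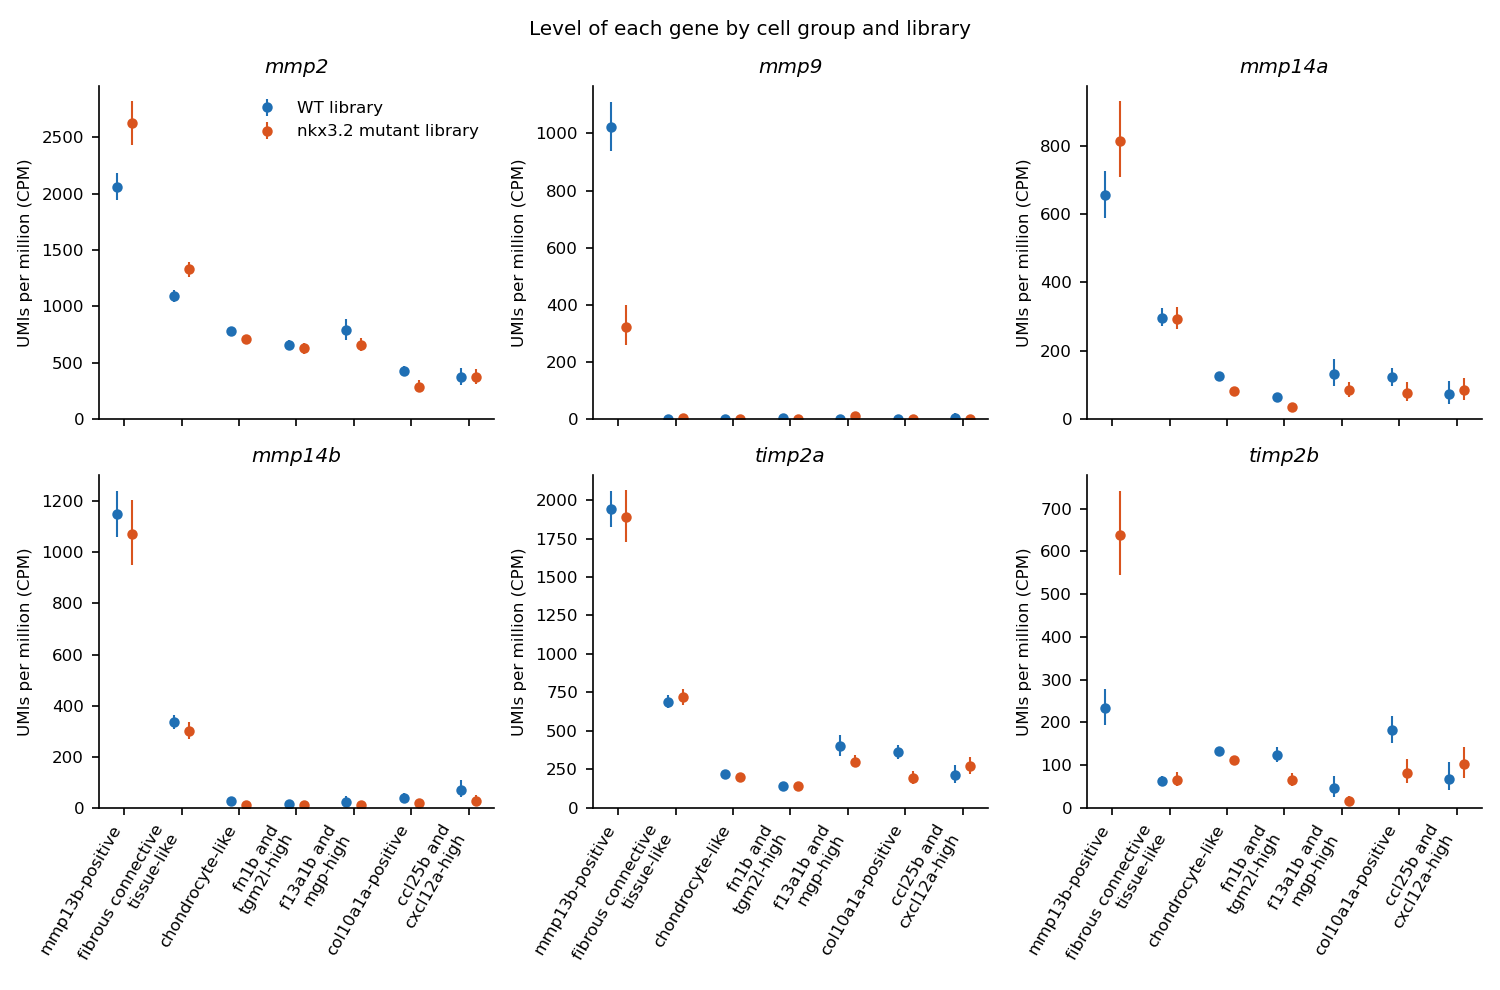
Level of 6 genes (UMIs per 1000000, CPM, vertical axes starting at 0) in 7 cell groups of the WT library (blue) and the nkx3.2 mutant library (orange), with 95% Poisson intervals for counting error. The mmp13b-positive cells are at the top of each panel, and mmp9 lies near 0 in all other groups; mmp13a, with 4 UMIs in all, is not drawn.

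The other gelatinase gene, mmp9, was close to absent outside the mmp13b-positive cells. The WT library held 578 mmp9 UMIs in 52 cells and the mutant library 105 UMIs in 23 cells, or 41.7 and 6.47 CPM. Of these UMIs, 97.1% in the WT library and 81.0% in the mutant library came from mmp13b-positive cells, where mmp9 was at 1023 CPM and 323 CPM. In chondrocyte-like cells mmp9 was at 1.13 CPM (9 UMIs in 9 cells) in the WT library and 0.277 CPM (3 UMIs in 3 cells) in the mutant library. No mmp9 UMI was found in the 108 WT and 61 mutant col10a1a-positive cells, a group from which cells past the mmp13b limit had been taken out first. The 95% upper limits there were 5.15 CPM in the WT library and 8.38 CPM in the mutant library.

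Within the mmp13b-positive group, 35 of 79 WT cells and 13 of 40 mutant cells held an mmp9 UMI. With each cell thinned to 3100 UMIs, and 9 WT and 6 mutant cells below that depth left out, the share was 41.4% (29.8 to 53.8%) in the WT library and 29.4% (15.1 to 47.5%) in the mutant library. The same share among chondrocyte-like cells, which serve as a background level, was 0.341% and 0.0965%, with median depths before thinning of 7701.5 and 9551 UMIs against 5867 and 5003 UMIs in the mmp13b-positive group. The mmp9-holding cells of this group were also the richer in mmp13b, with a median of 107 mmp13b UMIs per 10000 against 26.5 in the cells without mmp9 in the WT library, and 53.2 against 25.4 in the mutant library. Their other transcripts differed in the same direction in both libraries. The osteopontin gene spp1 was at 7568 CPM with mmp9 and 999 CPM without in the WT library, and at 11110 and 1499 CPM in the mutant library. The matrilin gene matn1 was lower in the cells with mmp9, at 1016 against 5734 CPM in the WT library and at 1930.2 against 3822 CPM in the mutant library. The collagen X gene col10a1a was lower in them too, at 1880 against 3473 CPM in the WT library and at 11.5 against 2391 CPM in the mutant library. The median col10a1a level of the whole group was 0 in both libraries, so most of its cells held no col10a1a UMI. The low mutant value rests on 13 cells. As cells with mmp9 were chosen by their own counts, a deeper cell is likelier to be among them, and mean depth was 8268 UMIs with mmp9 and 5890 without in the WT library, and 6695 and 6522 in the mutant library.

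**Figure D2:**
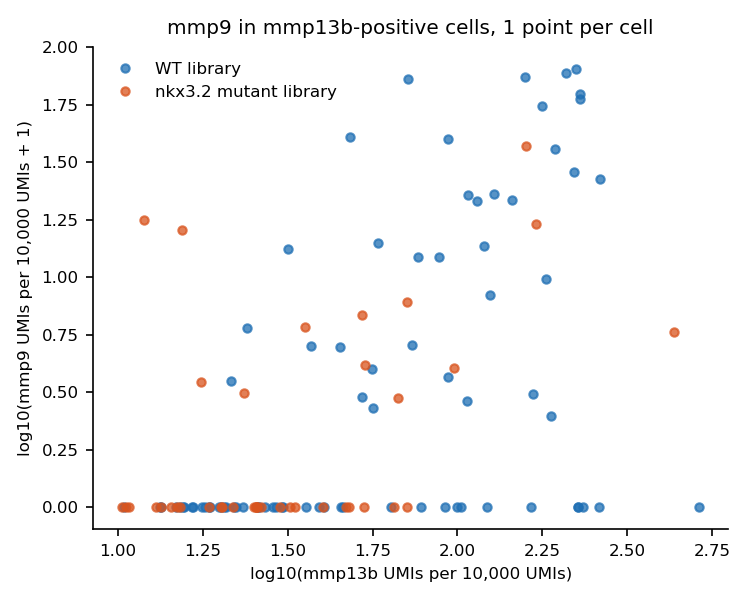
Each point is 1 mmp13b-positive cell of the WT library (blue) or the nkx3.2 mutant library (orange), with log10 of mmp13b UMIs per 10000 on the horizontal axis and log10 of mmp9 UMIs per 10000 plus 1 on the vertical axis (both log scales). Cells with no mmp9 UMI lie on the bottom line, 44 of 79 in the WT library and 27 of 40 in the mutant library, and the highest mmp9 values are WT cells rich in mmp13b.

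The membrane-type protease genes mmp14a and mmp14b shared the same leading groups but differed in how sharply they were restricted. In mmp13b-positive cells mmp14b reached 1148 CPM (630 UMIs) in the WT library and 1072 CPM (282 UMIs) in the mutant library. It was at 336 and 301 CPM in fibrous connective tissue-like cells and at 28.2 and 11.9 CPM in chondrocyte-like cells. Relative to chondrocyte-like cells of the same library, mmp14b was thus 40.7-fold (34.9 to 47.7) higher in WT and 90.1-fold (72.9 to 112) higher in mutant mmp13b-positive cells. The level of mmp14a was 654 and 813 CPM in mmp13b-positive cells, 297 and 293 CPM in fibrous connective tissue-like cells, and 125 and 81.1 CPM in chondrocyte-like cells. Its excess in mmp13b-positive over chondrocyte-like cells was 5.24-fold (4.63 to 5.92) in the WT library and 10.0-fold (8.60 to 11.7) in the mutant library. Both levels were lowest in cells high for fn1b and tgm2l, at 63.2 and 34.7 CPM for mmp14a and 12.9 and 9.54 CPM for mmp14b. For mmp14a, the levels in cells high for f13a1b and mgp, chondrocyte-like, col10a1a-positive, and ccl25b- and cxcl12a-high cells lay between 72.0 and 131 CPM in both libraries, and neighbours in this order overlapped.

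The balance between these gene copies therefore turned over between cell groups. In chondrocyte-like cells there were 4.43 mmp14a UMIs per mmp14b UMI (3.83 to 5.14) in the WT library and 6.81 (5.66 to 8.26) in the mutant library. In fibrous connective tissue-like cells the copies were near parity, at 0.883 (0.780 to 1.0) and 0.976 (0.836 to 1.14). In mmp13b-positive cells mmp14b was the more abundant copy, with 0.570 (0.499 to 0.650) mmp14a UMIs per mmp14b UMI in the WT library and 0.759 (0.632 to 0.910) in the mutant library. The authors' counting could misassign reads between near-identical copies, and how alike the 3′ ends of these copies are was not tested.

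**Figure D3:**
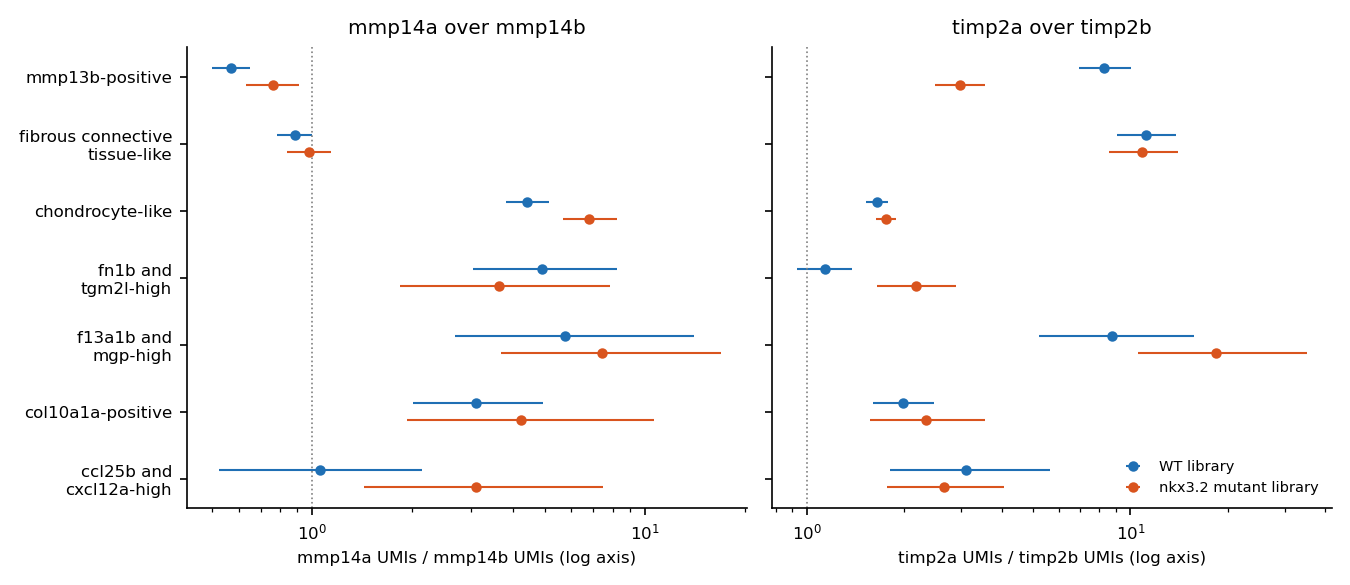
UMIs of the a copy per UMI of the b copy for the MMP14 genes (left) and the TIMP2 genes (right) in 7 cell groups, on log axes, with exact conditional binomial 95% intervals for counting error (WT library blue, nkx3.2 mutant library orange, dotted line at equal counts). The mmp13b-positive cells lie left of the line for MMP14, while chondrocyte-like cells lie to its right at 4.43 and 6.81.

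The collagenase gene mmp13a was not detected in the WT library, where 0 UMIs allow up to 0.266 CPM, and had 4 UMIs in 3 mutant cells. None of these 3 cells was mmp13b-positive. The other copy, mmp13b, is not a member but defined the leading group here, so its place in that group is given as a description only. It was at 343 CPM in the WT library and 74.96 CPM in the mutant library, and 93.4% and 86.4% of its UMIs fell in the group it defined.

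Of the inhibitor genes, timp2a was highest in the same leading groups as mmp2, mmp14a and mmp14b, while timp2b was low in fibrous connective tissue-like cells and in cells high for f13a1b and mgp. In mmp13b-positive cells timp2a reached 1939.6 CPM in the WT library and 1893 CPM in the mutant library, where 78 of 79 and 40 of 40 cells held a UMI. It was at 689 and 718 CPM in fibrous connective tissue-like cells and at 219 and 197 CPM in chondrocyte-like cells, so that the excess of mmp13b-positive over chondrocyte-like cells was 8.86-fold (8.20 to 9.57) and 9.59-fold (8.68 to 10.6). The lowest timp2a levels, 141 and 143 CPM, were in cells high for fn1b and tgm2l. Chondrocyte-like cells, the most numerous, gave 57.7% of timp2b UMIs in the WT library and 73.4% in the mutant library, and held timp2b at 133 and 113 CPM. Fibrous connective tissue-like cells, rich in timp2a, held timp2b at 61.8 and 66.0 CPM only. The ratio of timp2a to timp2b was accordingly 1.65 (1.53 to 1.78) and 1.75 (1.63 to 1.88) in chondrocyte-like cells but 11.2 (9.10 to 13.8) and 10.9 (8.57 to 13.997) in fibrous connective tissue-like cells. Cells high for f13a1b and mgp held timp2b at 45.7 and 16.3 CPM, from 16 and 13 UMIs. Their ratios were 8.75 (5.20 to 15.7) and 18.4 (10.5 to 35.0).

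In mmp13b-positive cells timp2b was at 233 CPM (195 to 277) in the WT library and 638 CPM (546 to 743) in the mutant library. The WT level there overlapped with that of WT col10a1a-positive cells, 181 CPM (152 to 215), while in the mutant library no other compared group exceeded 113 CPM. The 28 osteoblast-like WT cells held 156 timp2b UMIs, or 1099 CPM (933 to 1285), the highest timp2b level of any WT group, but the 13 mutant cells of that group held 4 UMIs and no comparison was made.

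Summed over the members, protease UMIs outnumbered inhibitor UMIs in each compared group, although the interval of the WT col10a1a-positive cells included 1. There were 2.30 protease UMIs per inhibitor UMI (2.24 to 2.37) in the whole WT library and 2.44 (2.37 to 2.52) in the whole mutant library. The mmp13b-positive cells, with the highest levels of both, gave 2.25 (2.10 to 2.41) and 1.91 (1.74 to 2.10), and chondrocyte-like cells gave 2.66 (2.55 to 2.78) and 2.59 (2.49 to 2.70). Cells high for fn1b and tgm2l had the highest ratios among the compared groups, 2.79 (2.50 to 3.12) in the WT library and 3.21 (2.78 to 3.73) in the mutant library. In the WT library this value overlapped with that of chondrocyte-like cells. In the mutant library it came to 4.75 in the cluster that held most cells of this group, and to 3.97 with a stricter limit. The WT minimum among the compared groups was in col10a1a-positive cells, at 1.08 (0.936 to 1.24). These cells were at 1.40 (1.101 to 1.78) in the mutant library, where cells high for ccl25b and cxcl12a, at 1.31 (1.03 to 1.66), overlapped with them. Both col10a1a-positive values depended on how the group was drawn. The WT value was 1.715 in the cluster that held most of these cells, which also took in cells of other groups. The mutant value was 1.86 with a looser limit. The 28 osteoblast-like WT cells, which were not compared, held 149 protease and 275 inhibitor UMIs, a ratio of 0.542 (0.441 to 0.664). The 13 mutant cells of that group gave 0.963 (0.540 to 1.71). The protease sum was mostly mmp2, which made up 72.4% of protease UMIs in the WT library and 82.1% in the mutant library, but 42.2% and 54.3% in mmp13b-positive cells. UMI ratios compare transcripts and say nothing of the amounts of active enzyme and inhibitor.

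The choice of genes in the sum set its size. With all measured mmp genes over all measured timp genes, mmp13b-positive cells had 5.37 protease UMIs per inhibitor UMI in the WT library and 2.98 in the mutant library, and chondrocyte-like cells had 0.933 and 0.839, because mmp13b joined the first sum and timp4.3 the second. As mmp13b itself defined the mmp13b-positive group, the values of that group under this sum follow from its rule and are a description only. Values were also below 1 in col10a1a-positive cells (0.539 and 0.398), cells high for f13a1b and mgp (0.804 and 0.744) and cells high for fn1b and tgm2l (0.764 and 0.824). The last group thus no longer had the highest ratios. Fibrous connective tissue-like cells and cells high for ccl25b and cxcl12a stayed within their counting intervals.

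**Figure D4:**
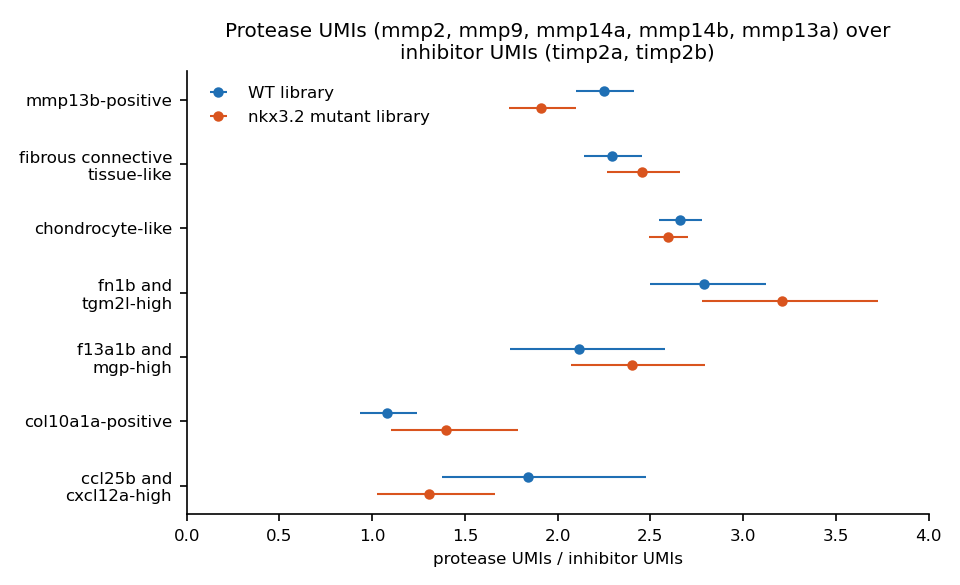
Protease UMIs (mmp2, mmp9, mmp14a, mmp14b and mmp13a) per inhibitor UMI (timp2a and timp2b) in 7 cell groups of the WT library (blue) and the nkx3.2 mutant library (orange), with exact conditional binomial 95% intervals for counting error on an axis starting at 0. Values run from 1.08 in WT col10a1a-positive cells to 3.21 in mutant cells high for fn1b and tgm2l.

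The 3 parts of the MMP2 activation complex could be counted in the same cells. Cells were thinned to 3100 UMIs, and those below that depth were left out. This left out 97 of 365 WT and 59 of 238 mutant fibrous connective tissue-like cells, but 69 of 950 and 43 of 1079 chondrocyte-like cells. In the cells kept, mmp2 was found together with an MMP14 copy and a TIMP2 copy in 62.9% (50.5 to 74.1%) of WT and 76.5% (58.8 to 89.3%) of mutant mmp13b-positive cells. The shares were 46.3% (40.2 to 52.4%) and 52.5% (44.9 to 60.01%) in fibrous connective tissue-like cells, and 22.6% (19.9 to 25.5%) and 15.4% (13.3 to 17.8%) in chondrocyte-like cells. Without thinning the shares were 74.7 and 92.5%, 54.2 and 60.9%, and 56.9 and 49.2%, so that the order of the WT fibrous connective tissue-like and chondrocyte-like cells depended on depth. The lowest thinned shares, in cells high for fn1b and tgm2l, were 10.8% (7.24 to 15.3%) and 3.82% (1.42 to 8.13%). Intervals of other groups overlapped with these. WT cells high for ccl25b and cxcl12a were level with the WT value, at 10.9% (3.62 to 23.6%). The col10a1a-positive cells were at 14.9% (8.56 to 23.3%) and 7.27% (2.02 to 17.6%). No group known to lack these genes was available as a background, and the part of free RNA was not tested. Shares of this kind follow the level of each gene and count captured transcripts, not all those present.

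Between the genotypes, 6 members had at least 20 UMIs over both libraries, and 2 of them, mmp9 and mmp14b, were at least 1.5-fold lower in the whole mutant library, where 22.3% of 11522 genes with that many UMIs were. None was at least 1.5-fold higher, where 13.8% of genes were. The ratio of mutant to WT level was 0.155 (0.125 to 0.191) for mmp9, 0.456 (0.419 to 0.496) for mmp14b, 0.670 (0.629 to 0.714) for mmp14a, 0.758 (0.728 to 0.789) for timp2a and 0.774 (0.724 to 0.828) for timp2b. The median log2 ratio of the 6 members was -0.49, and that of all genes with 20 or more UMIs was -0.13.

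The mmp13b-positive and fibrous connective tissue-like cells, which together carried most mmp9 and mmp14b UMIs, were smaller shares of the mutant library. The mmp13b-positive cells were 3.85% (3.06 to 4.78%) of WT and 2.004% (1.44 to 2.72%) of mutant cells, and fibrous connective tissue-like cells were 17.8% (16.2 to 19.5%) and 11.9% (10.5 to 13.4%). Chondrocyte-like cells were 46.3% (44.1 to 48.5%) and 54.1% (51.8 to 56.3%). The mutant level of each group was then weighted by the WT mix of groups, taken as shares of UMIs and not of cells. Those WT shares were 3.95% for mmp13b-positive, 11.8% for fibrous connective tissue-like and 57.5% for chondrocyte-like cells. The weighted ratios were 0.99995 for mmp2, 0.925 for timp2a, 0.861 for timp2b, 0.833 for mmp14a, 0.799 for mmp14b and 0.331 for mmp9. For mmp9 and mmp14b the weighted and whole-library ratios differed by more than 1.5 times, and the weighted ratio of mmp14b did not pass 1.5-fold. The weighted mmp9 ratio rests on 85 UMIs in 13 mutant cells. These are shares of cells past a marker limit, and a lower marker level gives a lower share. The cluster made without protease and inhibitor genes that held most mmp13b-positive cells had 112 WT and 78 mutant cells.

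Within mmp13b-positive cells, 1 of 6 members was at least 1.5-fold lower (28.6% of 2397 genes tested were) and 1 was at least 1.5-fold higher (8.18% of genes). The lower gene was mmp9, at 1023 CPM in the WT library and 323 CPM in the mutant library, a ratio of 0.316 (0.248 to 0.397). A single mutant cell held 38.8% of the mutant mmp9 UMIs, and without the richest cell of each library the ratio was 0.230. The higher gene was timp2b, with a ratio of 2.74 (2.16 to 3.47), and here 1 mutant cell held 67 of the 168 mutant UMIs, or 39.9%. Without the richest cell of each library the timp2b ratio was 1.93, and among the cells of the matching cluster it was 1.58. That cluster also took in cells of other groups, as 53 of its 112 WT and 24 of its 78 mutant cells were mmp13b-positive. The thinned share of cells with a timp2b UMI was 42.9% (31.1 to 55.3%) in the WT library and 61.8% (43.6 to 77.8%) in the mutant library, and these intervals overlapped. The other members differed less. The ratio was 1.27 (1.16 to 1.40) for mmp2, 1.24 (1.04 to 1.48) for mmp14a, 0.976 (0.876 to 1.09) for timp2a and 0.933 (0.808 to 1.08) for mmp14b. After TMM scaling the mmp2 ratio was 1.52, past 1.5-fold, and the timp2a and mmp14b ratios were 1.16 and 1.11, and in the matching cluster those of mmp14a and mmp14b were 0.830 and 0.577, so no direction is given for timp2a, mmp14a and mmp14b. The neutrophil markers summed to 0 UMIs among mmp13b-positive cells of either library. The macrophage list of 8 genes gave 29 UMIs in the WT library and 9 in the mutant library, with 5 and 7 of its genes at 0, against 561 and 85 UMIs of mmp9. These macrophage counts came to 52.9 and 34.2 CPM, higher than the 4.04 and 1.97 CPM over all cells. The epithelium list was at 195 CPM in the WT library and 642 CPM in the mutant library, of which icn made up 142 and 604 CPM. The fibrous connective tissue list was at 724 and 981 CPM and the muscle list at 58.3 and 19.0 CPM. The osteoclast list gave 24 and 10 UMIs, with 3 of its 4 genes at 0 in each library. That was 43.75 and 38.0 CPM, also higher than the 11.6 and 8.56 CPM over all cells. The part of these other cell types in the differences was not tested.

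In fibrous connective tissue-like cells 0 of 5 members differed by 1.5-fold in either direction, where 8.01% of 5256 genes tested were higher and 25.3% lower. The mmp2 ratio there was 1.22 (1.14 to 1.31), and the ratios of mmp14a, mmp14b, timp2a and timp2b lay between 0.895 and 1.07, each with an interval that included 1. TMM scaling moved mmp14a and mmp14b above 1, to 1.16 and 1.05, and brought timp2a to 1.22 and mmp2 to 1.43. In the matching cluster, which also took in cells of other groups, the ratio was 0.693 for mmp14b, 0.928 for timp2a and 1.08 for mmp2. Among the fibrous connective tissue-like cells of that cluster alone, the mmp14b ratio was 0.873 (0.757 to 1.007). No direction is therefore given for mmp14a, mmp14b and timp2a.

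In chondrocyte-like cells mmp14a and mmp14b were the 2 of 5 members at least 1.5-fold lower, where 18.6% of 9452 genes tested were lower, and 0 were higher, where 19% of genes were. The mmp14b ratio was 0.422 (0.337 to 0.527), from 225 UMIs in the WT library and 129 in the mutant library. These were low levels, at 28.2 and 11.9 CPM. In the same cells mmp13b was at 21.9 and 6.55 CPM and col10a1a at 19.7 and 6.09 CPM, both genes whose richer cells had been placed in other groups. The part of free RNA in such low levels was not tested, here or within the clusters below. The mmp14a ratio was 0.649 (0.592 to 0.712), from 997 and 879 UMIs. It came to 0.715 without mitochondrial and ribosomal protein genes and to 0.743 as the mean over cells, neither of them past 1.5-fold. The genes mmp2, timp2a and timp2b had ratios of 0.910 (0.880 to 0.941), 0.901 (0.846 to 0.960) and 0.848 (0.781 to 0.922), and without mitochondrial and ribosomal protein genes the mmp2 ratio was 1.002. Chondrocyte-like cells were spread differently over the clusters in the 2 libraries. Cluster 2, whose leading genes included matn1 and the collagen-modifying gene p4ha2, held 32.4% of WT and 13.3% of mutant chondrocyte-like cells. Cluster 3, whose leading genes included bhmt and eif4ebp3, held 6.21% and 35.2%. Within the clusters, mmp14b had a ratio below 1 in each of the 6 with at least 30 chondrocyte-like cells per library, between 0.356 and 0.695. The interval lay below 1 in 3 of them, clusters 1, 2 and 10, with 0.557 (0.328 to 0.922), 0.356 (0.187 to 0.631) and 0.372 (0.161 to 0.853). The mmp14a ratio was also below 1 in all 6, between 0.432 and 0.867, with the interval below 1 in clusters 3, 10 and 11. The mmp2 ratio ran from 0.917 to 1.60 in the same clusters, the highest value being that of cluster 11, led by DNA replication genes.

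In col10a1a-positive cells 4 of 5 members were at least 1.5-fold lower, where 23% of 2782 genes tested were, and 0 were higher, where 12.4% of genes were. The timp2a level was 360.1 CPM (258 UMIs) in the WT library and 191 CPM (84 UMIs) in the mutant library, a ratio of 0.530 (0.409 to 0.680). The timp2b ratio was 0.451 (0.303 to 0.656), the mmp14a ratio 0.636 (0.415 to 0.956) and the mmp14b ratio 0.465 (0.183 to 1.05), the last from 28 and 8 UMIs, with 5 of the 8 in 1 cell. Without that cell and the richest WT cell the mmp14b ratio was 0.212. The mmp2 ratio was 0.677 (0.545 to 0.836), but 1.08 with a looser limit for the group. In the matching cluster the ratios were 0.999 for mmp2, 1.15 for timp2a, 0.839 for timp2b and 0.772 for mmp14a. That cluster held 98 col10a1a-positive cells over both libraries, beside 113 cells of no group and 90 chondrocyte-like cells. A further 58 col10a1a-positive cells lay in the cluster of most mmp13b-positive cells. As most of the matching cluster was other cells, its ratios do not isolate the group, and no direction is given for mmp2 and timp2a. As the mean over cells of the group the ratios were 0.702 for mmp14a, 0.857 for mmp14b and 0.738 for timp2a, none of them past 1.5-fold. The median col10a1a level in the group was 54.6 UMIs per 10000 in the WT library and 22.8 in the mutant library.

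In the 3 remaining groups fewer UMIs were available. In cells high for fn1b and tgm2l, 2 of 5 members were at least 1.5-fold lower (22% of 4492 genes tested) and 0 higher (15.4% of genes). These were mmp14a, at 0.549 (0.371 to 0.798), and timp2b, at 0.531 (0.403 to 0.695). With a stricter limit the mmp14a ratio was 0.352. In cells high for f13a1b and mgp, 2 of 4 members were lower (25.7% of 2875 genes) and 0 higher (15.4% of genes), again mmp14a at 0.640 (0.433 to 0.953) and timp2b at 0.357 (0.158 to 0.792). The mmp14a ratio there was 0.721 after TMM scaling and 0.709 in the matching cluster, neither past 1.5-fold. In cells high for ccl25b and cxcl12a, 1 of 5 was lower (21.6% of 1698 genes) and 0 higher (10.4% of genes). This was mmp14b at 0.395 (0.156 to 0.925), from 18 and 9 UMIs. The timp2b ratio in this group, 1.49 (0.819 to 2.80), came to 0.363 without the richest cell of each library, since 1 mutant cell held 29 of 34 UMIs.

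**Figure D5:**
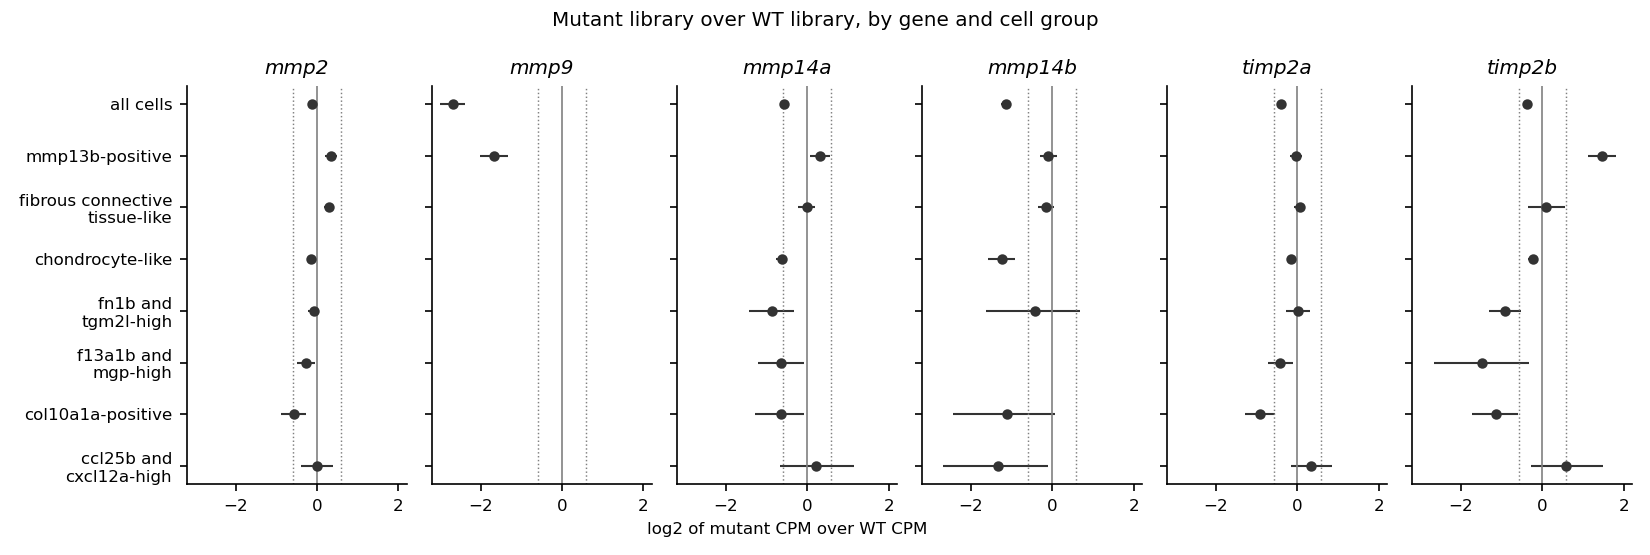
log2 ratio of mutant to WT level (horizontal axes) for 6 genes over all cells and in 7 cell groups, with exact conditional binomial 95% intervals for counting error, where at least 20 UMIs were counted. Dotted lines mark 1.5-fold; mmp9 lies left of them over all cells and in mmp13b-positive cells, and timp2b lies right of them in mmp13b-positive cells.

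Other genes of the family were followed through lists of the pathway. Of 25 listed metalloproteinase genes 22 were found by symbol, and of 8 listed inhibitor genes 7; timp3 was not analysed here. Beyond the members, mmp13b, mmp17a, timp4.3 and reck reached 20 UMIs. The mmp13b ratio was 0.219 (0.205 to 0.233) in whole libraries, 0.494 at the WT mix of groups and 0.493 (0.461 to 0.528) among mmp13b-positive cells. The latter values depend on a group that mmp13b itself defined and are given as a description only. In that group 1 mutant cell held 17.3% of the mutant mmp13b UMIs. The membrane-linked protease gene mmp17a had 44 UMIs in the WT library and 22 in the mutant library, a ratio of 0.427 (0.244 to 0.729). The inhibitor gene timp4.3 was more abundant than either TIMP2 gene, at 552 CPM in the WT library and 570.1 CPM in the mutant library, and 677 and 660.1 CPM in chondrocyte-like cells, but 61.8 and 38.3 CPM in fibrous connective tissue-like cells. The membrane-anchored inhibitor gene reck was at 58.2 and 47.1 CPM, a ratio of 0.809 (0.732 to 0.895). Among mmp13b-positive cells 3 of 4 inhibitor genes tested, timp2b, timp4.3 and reck, were at least 1.5-fold higher, where 8.18% of genes were. The timp4.3 ratio in that group was 1.18 as the mean over cells, 1.29 with a stricter limit and 0.980 in the matching cluster, so no direction is given for it. A further entry named MMP23B, found after the data were examined, had 91 and 48 UMIs and a ratio of 0.451 (0.311 to 0.646). The genes mmp11b, mmp16b, mmp19, mmp20a, mmp20b, mmp24 and mmp25a had 0 UMIs in both libraries.

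Among activators and cofactors of the proteases, 0 of 7 genes tested in whole libraries differed by 1.5-fold in either direction. The thrombospondin gene thbs1b was at 1145 and 847 CPM (ratio 0.740, 0.723 to 0.757), and furina, for the convertase that activates MMP14 in mammals, had 0.809 (0.736 to 0.890). The ratio of bsg, for the MMP inducer basigin, was 0.816 (0.779 to 0.854). The intervals of thbs2b, at 0.926 (0.642 to 1.34), and serpine2, at 1.06 (0.905 to 1.24), included 1. Of 21 other matrix protease genes tested 9 were at least 1.5-fold lower and 0 higher in whole libraries. Among those with at least 100 UMIs the lowest ratios were those of adamts10, 0.390 (0.255 to 0.585), adamts1, 0.460 (0.339 to 0.620), and htra1b, 0.487 (0.432 to 0.549), while adamts5, ctsba and adam8a had the highest, between 0.825 and 0.950, with intervals that included 1. Of 10 substrate genes 8 were at least 1.5-fold lower and 0 higher. The collagen I genes col1a1a and col1a2 were at 183 and 272 CPM in the WT library and 83.1 and 134 CPM in the mutant library, with ratios of 0.454 (0.425 to 0.485) and 0.492 (0.467 to 0.519). The fibronectin genes fn1a and fn1b had ratios of 0.502 (0.363 to 0.690) and 0.650 (0.625 to 0.676), fn1b being also a marker that defined a cell group. The aggrecan genes acana and acanb, at 1.04 (0.979 to 1.11) and 0.983 (0.870 to 1.11), did not differ beyond counting error. The 22.3% of all genes that were lower is the background for each of these counts, and the shares of cell groups differed as given above.

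Genes with the most similar pattern were sought by Pearson's r of log2(CPM + 1) over 14 points, 7 cell groups in 2 libraries, among 4834 genes with at least 200 UMIs. The values describe these points, which share libraries and so are not independent. The gene mafba, for a MAF family transcription factor, came first for mmp14a (r = 0.965), mmp14b (r = 0.967) and timp2a (r = 0.934). The adaptor protein gene sh3pxd2b came second for mmp2 (r = 0.877), mmp14a (r = 0.929) and timp2a (r = 0.923). The nearest gene was ist1 for mmp2 (r = 0.902), pfn2 for mmp9 (r = 0.869) and dnajb11 for timp2b (r = 0.885). For mmp9 the 2 mmp13b-positive points, at 1023 and 323 CPM, stood far above all others, which reached at most 8.78 CPM. Its r is therefore largely set by these 2 points. The remaining names under the same rule were gmds for mmp2, vma21 and ergic2 for mmp9, tfe3a for mmp14a, CR936442.2 and fhl2a for mmp14b, arhgef12b for timp2a, and ywhae2 and wu:fj16a03 for timp2b.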

How the data were processed

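Per the labels' protocols, sorted live cells were run on a 10x Genomics controller with the v2 chemistry for 3′ ends. The deposited files hold raw UMI counts per gene and cell, made by the authors with Cell Ranger per the submitters' processing notes; its version, the genome build and the annotation are not given in the sources used here. Cells needed at least 500 UMIs, 300 genes and at most 20% mitochondrial UMIs, which removed 0 of 2057 WT and 2005 mutant barcodes (13927936 and 16349558 UMIs). Scrublet in Scanpy 1.11.5 called 3 WT and 9 mutant cells doublets, 0.295% of barcodes, so doublets of like cells may remain; these and 3 WT cells with over 5% globin UMIs were left out.

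Counts were summed per library and cell group and given as CPM, with exact Poisson intervals, exact conditional binomial intervals for ratios and exact binomial (Clopper-Pearson) intervals for shares, all 95% and for counting error only. A gene was tested at 20 UMIs over both libraries and counted as higher or lower past 1.5-fold; no statistical test was run. The interval code was tested on simulated data. Clusters came from Leiden (leidenalg 0.10.2) at resolution 1 on 30 principal components and 20 neighbours of 1970 variable genes, with protease and inhibitor genes removed. TMM factors came from edgeR 4.0.16 in R 4.3.3. Other steps used Python 3.11.15, numpy 2.4.6, scipy 1.17.1, pandas 2.3.3 and matplotlib 3.10.9.

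The members, gene lists and markers were chosen with earlier results of these data known. The limits of the cell groups, and the use of mmp13b and col10a1a alone to define groups, were set after the data were examined; a cell went to the first rule it met, in the order osteoblast-like, mmp13b, col10a1a, krt4, ccl25b and cxcl12a, fibrous, f13a1b and mgp, fn1b and tgm2l, chondrocyte-like. Named genes were all members, every mmp, timp and reck gene with at least 20 UMIs, the 3 highest and 3 lowest ratios among activators, other proteases and substrates with at least 100 UMIs, and for each member with 200 UMIs the 3 genes of highest r over groups of at least 30 cells. One gene that this rule names is not reported here.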

Additional observations from a re-analysis of the deposited data

Results flagged for a closer look

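The difference between the libraries in timp2b ran in opposite directions in different cell groups. Its log2 mutant over WT ratio was 1.45 in mmp13b-positive cells, higher than the log2 ratio of col10a1a-positive cells by 2.60, than that of cells high for f13a1b and mgp by 2.94, and than that of cells high for fn1b and tgm2l by 2.36. With 1 library per genotype the difference between these effects was not tested. A single mutant mmp13b-positive cell held 39.9% of the mutant timp2b UMIs of its group.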

How the results depend on the processing

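No paired analysis was possible because each genotype has 1 library. Leaving out a library was not possible for the same reason, and running without the cell filter was not done because it removed 0 cells. Keeping the doublets or the globin-rich cells, or a stricter cell filter, moved none of the mutant over WT or protease over inhibitor ratios beyond their counting intervals. Of 639 such mutant over WT values under all alternatives, 554 stayed within the interval, 81 moved out of it and 4 were counted as reversed. Other values crossed 1 too, such as mmp14a in mmp13b-positive cells (0.830 with clusters) and mmp2 in col10a1a-positive cells (1.08 with a looser limit). Without mitochondrial and ribosomal protein genes, after TMM scaling, as the mean over cells and at the WT mix of groups (an alternative chosen after seeing the data, as was keeping the globin-rich cells), the whole-library ratio was 1.01, 1.005, 1.01 and 0.99995 for mmp2, 0.740, 0.734, 0.801 and 0.833 for mmp14a, 0.503, 0.4996, 0.605 and 0.799 for mmp14b, and 0.837, 0.831, 0.864 and 0.925 for timp2a. For timp2b the values were 0.855 without those genes, 0.849 after TMM scaling and 0.861 at the WT mix. The mmp9 ratio was 0.119 without the richest cell of each library and 0.331 at the WT mix. The cause of the shifts in scaling was not tested. With clusters in place of marker rules, timp4.3 came to 0.980 in the mmp13b-positive and 1.67 in the fibrous group and timp2a to 1.15 in the col10a1a-positive group, and with a stricter limit mmp13b came to 1.03 in the fibrous group; the cause was not tested. The WT protease over inhibitor ratio of all cells was 2.22 without mmp9 and mmp13a and 2.21 as the mean over cells, and with all measured mmp and timp genes it was 1.42, against 1.05 in the mutant library. In mmp13b-positive WT cells it was 1.78 without mmp9 and mmp13a and 1.92 in the matching cluster. With all genes, among them mmp13b, which defined that group, it was 5.37 in its WT and 2.98 in its mutant cells. In the fibrous group it was 2.53 in the matching WT cluster, and in chondrocyte-like cells 0.933 (WT) and 0.839 (mutant) with all genes. Depth limits mmp13a most, with 4 UMIs in all, then mmp9 and mmp14b, with under 20 UMIs in at least 1 library of several groups.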

Other observations

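The mutant library held 12 UMIs of mmp30, a metalloproteinase gene with 0 UMIs in the WT library. Of these, 10 came from 1 mutant cell of 12479 UMIs that met no group's rule and also held 2 of the 4 mmp13a UMIs of the series. That cell held 50 UMIs of the epithelial gene epcam, 14 of cfd, 4 of cdh1 and 1 each of krt4 and icn, with krt5, cyt1 and cyt1l at 0. It held 1 UMI over the chondrocyte marker list, and 0 UMIs of mmp2, mmp9, mmp14a, mmp14b, timp2a and timp2b. No other cell kept from either library held more than 1 mmp30 UMI.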
